A study of Mus musculus with 12 samples.

Results

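Hypothalamus of garlic-treated diabetic mice was compared with hypothalamus of control mice over all genes, to see how near the treated tissue lay to control. The comparison took the libraries labelled as treated with aged garlic extract (n = 2) and the control libraries (n = 3), 5 of the 12 bulk RNA libraries of the series. All mice were male C57BL/6. The garlic mice had received streptozotocin, a toxin of insulin-producing beta cells, at 70 mg/kg on postnatal day 2. They ate a diet with 60% of its energy from fat for 8 weeks from 3 weeks of age, and were gavaged each day for 28 days with aged garlic extract at 200 mg/kg. The curcumin mice (n = 3) had the same injection and diet with curcumin at 50 mg/kg. They enter only the shared fit, the distances and ranking of pairs of libraries, and the values of vessel markers. The diabetes mice (n = 4), used here for context, had the same injection and diet and were gavaged with vehicle. Control mice ate standard chow and were gavaged with vehicle, and no streptozotocin is given for them. Injection, diet and extract therefore differ together between the garlic and control groups and cannot be told apart in this comparison. The labels' protocol starts the gavage at week 7 of the diet and the design text after 11 weeks, so the timing is unresolved. With 2 garlic libraries, only large changes can be separated from the spread between libraries.

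The hypothalamus sets appetite, energy use, water balance and pituitary output. Arcuate neurons that make Pomc and Cartpt curb feeding, whereas those that make Agrp and Npy drive it, and both kinds respond to leptin and insulin. Aged garlic extract is rich in organosulfur compounds, which are studied as sources of hydrogen sulfide and as activators of the antioxidant factor NRF2. The hypothalamus is dissected by hand beside striatum, thalamus, meninges and pituitary, so bulk tissue can carry RNA of those neighbours. In bulk samples, fewer cells of a type and less RNA per cell cannot be told apart.

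Library totals were 21952253 and 18332013 counts in garlic replicates 1 and 2, against 23470800, 17575625 and 20868779 in control replicates 1 to 3. Hypothalamic transcription factor genes summed to 348 and 408 CPM (counts relative to library size, scaled by TMM) in the garlic libraries, against 339 to 398 CPM in control, and the peptide genes Avp, Oxt, Pmch and Hcrt were detected in all 5 libraries. Several libraries stood apart in other markers. Garlic replicate 1 held 719 CPM of striatal markers, against 349 CPM in garlic replicate 2 and 348 to 368 CPM in control. Control replicate 1 held 1252 CPM of meningeal markers, against 242 to 366 CPM in the other 2 control libraries. Control replicate 3 held 1439 CPM of astrocyte markers, against 4855 and 4885 CPM in the other 2. Diabetes replicate 4 held 874 CPM of pituitary markers, against 6.11 to 22.6 CPM in the other 3 diabetes libraries, and curcumin replicate 2 had the lowest hypothalamic factor sum (153 CPM). They enter the estimate of spread and the ranking of pairs, and diabetes replicate 4 also enters the diabetes values. No gene was called between garlic and control with or without both, nor with any 1 garlic or control library left out.

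The garlic libraries lay as near to control as control libraries lay to each other. The distance used is the root mean square difference in log2 CPM over 25562 tested genes. From each garlic library to the mean of 2 control libraries it was 0.700 in replicate 1 and 0.947 in replicate 2. Each control library lay 0.737, 1.03 and 1.01 from the mean of the other 2. Garlic averaged 0.823 ± 0.175 (SD, n = 2) and control 0.924 ± 0.162 (SD, n = 3), a ratio of 0.891, and the groups overlapped. The diabetes libraries lay farther, between 1.44 and 1.56 from control, and averaged 1.51 ± 0.058 (SD, n = 4). They also lay far from each other, at 1.82 on average over 6 pairs. Their distance to control therefore includes the spread among them and does not by itself measure a shift. Garlic and diabetes did not overlap, and the exact two-sided permutation test of their distances gave p = 0.0667, the smallest that its 15 splits allow. That design cannot reach 0.05. Without diabetes replicate 4 and curcumin replicate 2, garlic averaged 0.815 and the other 3 diabetes libraries 1.52 ± 0.072 (exact permutation p = 0.1, the smallest that 10 splits allow). Of the curcumin libraries, replicate 2 lay within the control range at 1.01, and replicates 1 and 3 lay at 1.71 and 1.47.

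**Figure D1:**
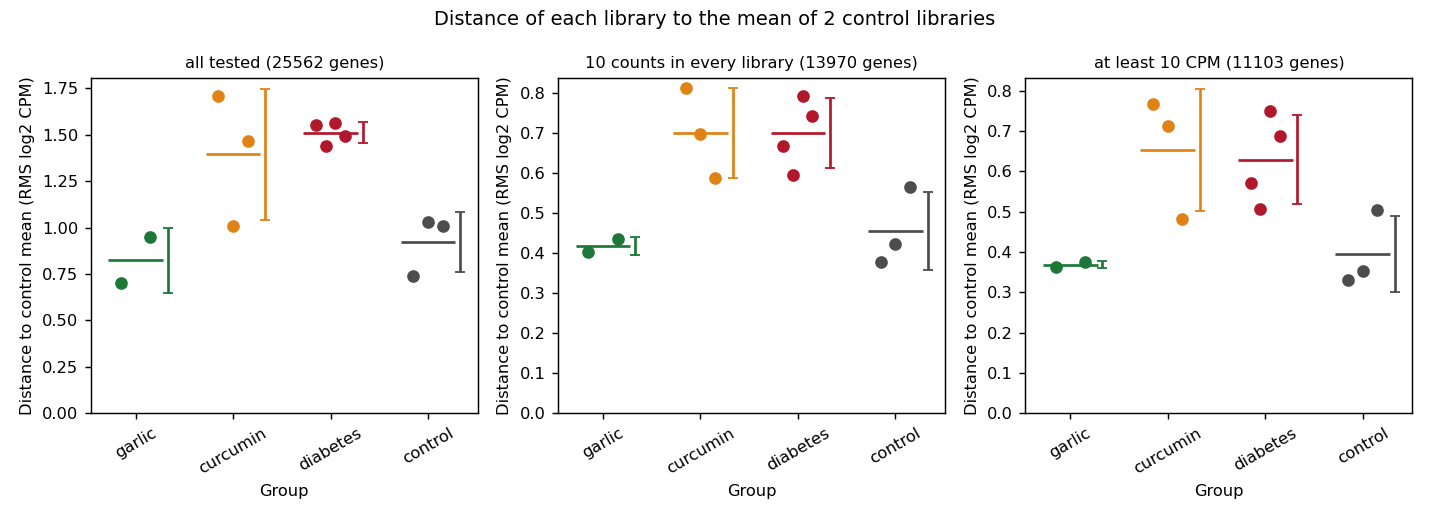
Distance of each library (points) to the mean of 2 control libraries, in root mean square log2 CPM, by group, over all tested genes, over genes with at least 10 counts in every library and over genes of at least 10 CPM. Horizontal lines are group means and bars are ± 1 SD. Both garlic libraries sit within the range of the 3 control libraries or below it in each panel, and below every diabetes library. Curcumin replicate 2 over all tested genes, and curcumin replicate 3 over genes of at least 10 CPM, also sit within the control range.

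The number of genes detected differed between groups. When all libraries were thinned to the lowest depth, 33125 and 34719 genes were detected in the garlic libraries, 20133 to 22515 in diabetes libraries, and 33157, 25766 and 28474 in control libraries. Over the 13970 genes with at least 10 counts in every library, the distances were 0.402 and 0.435 in garlic, 0.596 to 0.795 in diabetes, and 0.378, 0.422 and 0.566 in control. Garlic again overlapped control and lay below diabetes, with an exact permutation p of 0.0667 for garlic against diabetes. The curcumin libraries lay between 0.589 and 0.815, above all controls. Over the 11103 genes of at least 10 CPM, garlic stood at 0.363 and 0.374, diabetes at 0.506 to 0.750, and control at 0.330, 0.354 and 0.504, with an exact permutation p of 0.133. Curcumin replicate 3 lay within the control range there, at 0.481, and replicates 1 and 2 lay above it, at 0.767 and 0.712. Both gene sets were added after the data were seen.

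Pairs of libraries crossed the group labels. The nearest of all 66 pairs was garlic replicate 1 with control replicate 1, at 0.577 (Spearman correlation across genes 0.983, genes not being independent replicates). The next nearest was garlic replicate 2 with control replicate 3, at 0.938. The 2 garlic libraries were 1.03 apart, which ranked 10 among the 66 pairs. Garlic to control pairs averaged 0.971 over 6 pairs (0.577 to 1.31), control pairs averaged 1.07 over 3 pairs (0.955 to 1.26), and garlic to diabetes pairs averaged 1.59 over 8 pairs (1.496 to 1.70). Diabetes pairs averaged 1.82 over 6 pairs (1.71 to 1.86), above the mean of 1.60 over 12 control to diabetes pairs. Over genes with at least 10 counts in every library, diabetes pairs averaged 0.739 and control to diabetes pairs 0.750. The nearest pair there was the same, at 0.313, and the pair of garlic libraries again ranked 10, at 0.601. The share of counts from the mitochondrial chromosome moved with this crossing, at 5.02% in garlic replicate 1 and 7.62% in garlic replicate 2, against 5.16%, 5.12% and 7.40% in control replicates 1 to 3. Its part in the distances was not tested.

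**Figure D2:**
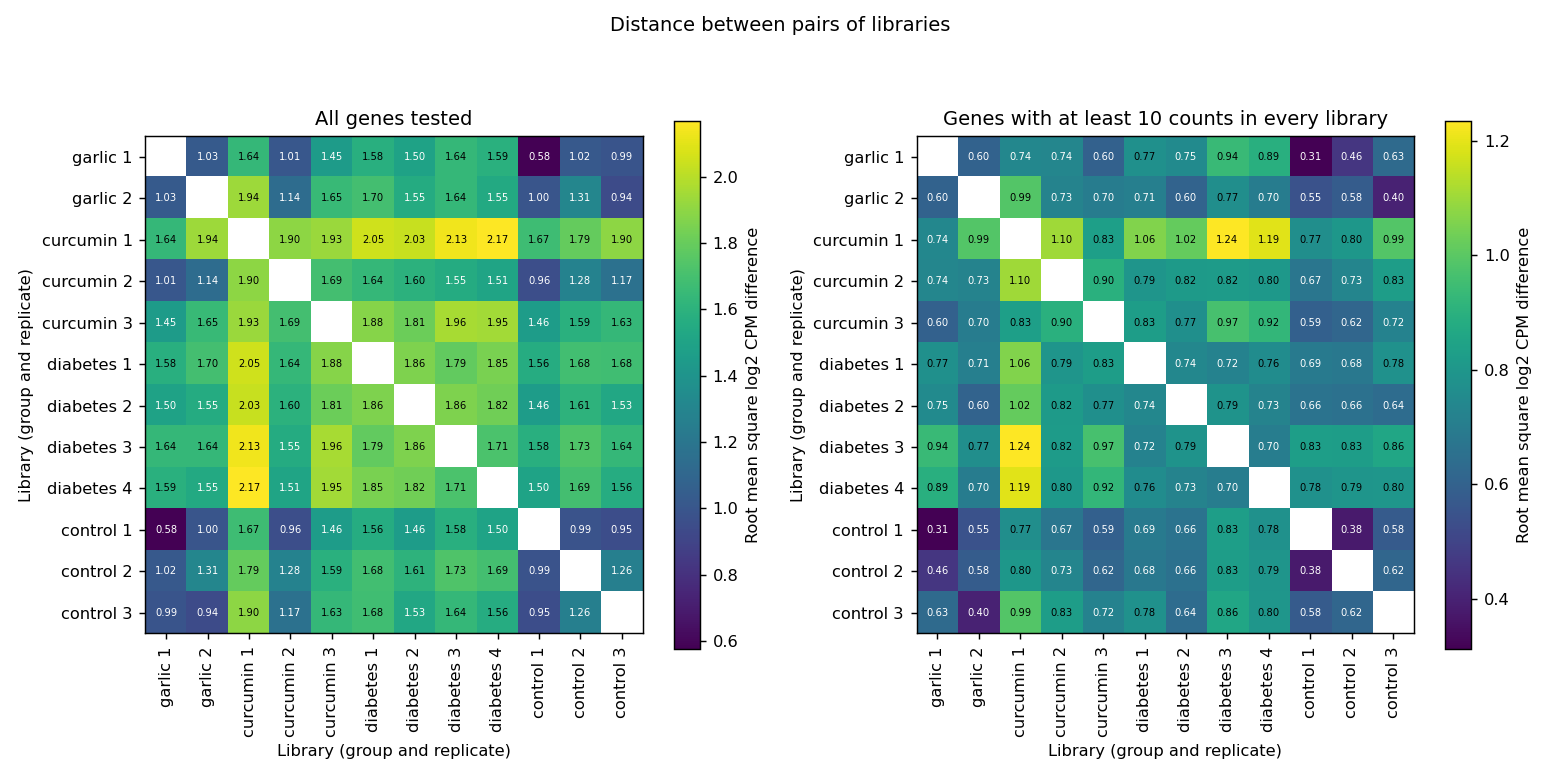
Root mean square log2 CPM difference for each pair of the 12 libraries, over all tested genes (left) and over genes with at least 10 counts in every library (right); rows and columns are libraries and darker cells are nearer pairs. The darkest cell in each panel is garlic replicate 1 with control replicate 1 (0.577 and 0.313), and the block of garlic with control is about as dark as the block of control with control.

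No gene was called between garlic and control. edgeR's quasi-likelihood test found 0 of 25562 genes at a Benjamini-Hochberg adjusted p under 0.05, and every adjusted p was 1. Without the filter on low counts, 3 were called, of which Ptgds is described with the meninges. At an unadjusted p under 0.05, 20 genes stood higher in garlic (0.0782% of those tested) and 8 lower (0.0313%). Together they were 0.11%, below the share that this threshold gives with no difference. The fit took its spread from all 12 libraries (common dispersion, an estimate of that spread, 0.653). On the 5 garlic and control libraries alone that dispersion was 0.140, with 0 of 21817 genes called. There 110 genes were higher and 102 lower at that p. The lack of calls in the shared fit therefore does not measure nearness. DESeq2 called 0 genes, and limma-voom called 0 with 490 at an unadjusted p under 0.05. The groups did not overlap for 1701 genes higher in garlic (6.65%) and 1561 lower (6.11%). The median log2 change was -0.0032, the middle 50% of genes ran from -0.22 to 0.24, and 49.3% of genes were above 0.

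The size of the changes was set beside that in diabetes libraries, a comparison that shares the 3 control libraries. Among the 17686 genes that averaged at least 1 CPM over the garlic and control libraries, the median size of the log2 change was 0.157 for garlic minus control and 0.364 for diabetes minus control. Changes over 1 on the log2 scale made up 2.39% of those genes for garlic and 10.4% for diabetes. Over all 25562 genes tested, those of low counts included, the median standard error of the garlic minus control log2 change was 0.765. A change of 2-fold, 1 on the log2 scale, is larger than that error, but its 95% interval would include 0. The standard error differed between genes of higher level, at 0.29 for Qk and 0.94 for Cck. A direct test of garlic against diabetes also called 0 genes in edgeR (smallest adjusted p 0.0892), with 1765 genes higher in garlic (6.9%) and 1031 lower (4.03%) at an unadjusted p under 0.05. DESeq2 called 432 genes in that comparison (34 higher in garlic and 398 lower) and limma-voom 429 (70 higher and 359 lower).

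Classes of genes had medians close to 0. Median log2 changes in garlic were 0.024 for ribosomal protein genes, 0.029 for pseudogenes, 0.034 for long noncoding genes and -0.0071 for other protein-coding genes. By exon length, medians for garlic ran from -0.02 to 0.02. Those for diabetes minus control ran from 0.26 in the second shortest of 5 length classes to -0.36 in the longest.

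Markers of blood vessels were among the genes of smallest p that stood higher in garlic. Slco1a4, an organic anion transporter of brain endothelium, was at 54.5 and 38.2 CPM in the garlic libraries, against 13.0, 13.5 and 20.3 CPM in control. Both garlic libraries were above all 3 controls, with a log2 change of 1.57 ± 0.44 (SE; unadjusted p = 0.0019, adjusted p = 1 in edgeR). Rgs5, a G-protein regulator of pericytes, was at 79.4 and 55.3 CPM in garlic, against 35.2, 24.6 and 38.6 CPM in control (log2 change 1.04 ± 0.42). Flt1, a receptor for vascular endothelial growth factor, was at 69.2 and 29.0 CPM in garlic, against 22.7, 16.5 and 25.8 CPM in control (1.18 ± 0.51). Ptprb, an endothelial phosphatase that restrains vessel growth signals, was at 36.3 and 15.95 CPM in garlic, against 13.5, 11.8 and 10.1 CPM in control (1.15 ± 0.48). Garlic replicate 1 was the higher garlic library for each of these genes, and no control reached either garlic library.

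Of 19 endothelial and mural genes tested, 3 had an unadjusted p under 0.05, all higher in garlic (0.0782% of all genes tested), and 10 did not overlap upward (6.65% of all genes), against 1 downward (6.11%). Their median log2 change was 0.58, beside -0.0032 over all genes, and between 0.39 and 0.87 with any 1 library left out. Their summed level was 474 and 325 CPM in garlic, against 298, 257 and 278 CPM in control. For diabetes minus control, log2 changes were 0.02 for Slco1a4, 0.05 for Rgs5, -0.26 for Ptprb and -0.68 for Flt1. The median of the list there was 0.36, and turned to -0.15 without diabetes replicate 4 and curcumin replicate 2. The curcumin libraries were also above all controls for Slco1a4 (34.8, 59.6 and 28.5 CPM), Rgs5 (55.7, 83.7 and 39.2 CPM) and Ptprb (52.7, 28.4 and 28.9 CPM). For Flt1, at 61.0, 66.0 and 21.9 CPM, they overlapped control.

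Striatal genes stood higher too, and mainly in garlic replicate 1. Drd1, the D1 dopamine receptor, was at 16.2 and 5.63 CPM in garlic, against 3.97, 3.10 and 4.71 CPM in control (log2 change 1.47 ± 0.63). Adora2a, an adenosine receptor of striatal neurons, was at 23.1 and 1.84 CPM in garlic, against 1.77, 0.995 and 0.952 CPM in control (3.32 ± 1.504). In both, garlic replicate 2 lay nearer to the highest control than to garlic replicate 1. Ppp1r1b, which encodes the dopamine-regulated phosphatase inhibitor DARPP-32, was at 86.0 and 18.5 CPM in garlic, against 19.8, 20.9 and 12.5 CPM in control. Its groups overlapped, as did those of the enkephalin precursor Penk, at 186 and 119 CPM in garlic, against 91.8, 111 and 121 CPM in control.

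All 11 striatal genes were above 0 (49.3% of all genes tested), 4 had an unadjusted p under 0.05 (0.0782%), and 6 did not overlap upward (6.65%). The median log2 change of the list was 0.68 and was 0.14 without garlic replicate 1. Without that library the log2 change was 0.05 for Ppp1r1b and 0.56 for Adora2a. Dendrin (Ddn), a postsynaptic protein of forebrain neurons, and Crym, a thyroid hormone-binding protein, followed the same library. Ddn was at 143 and 35.1 CPM in garlic, against 48.2, 33.9 and 37.9 CPM in control, and its log2 change of 1.15 turned to -0.20 without garlic replicate 1. Crym was at 32.9 and 5.84 CPM in garlic, against 4.35, 2.54 and 6.26 CPM in control, a log2 change of 2.14 ± 0.77 that was 0.40 without it. The part of striatal tissue in these values was not tested.

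**Figure D3:**
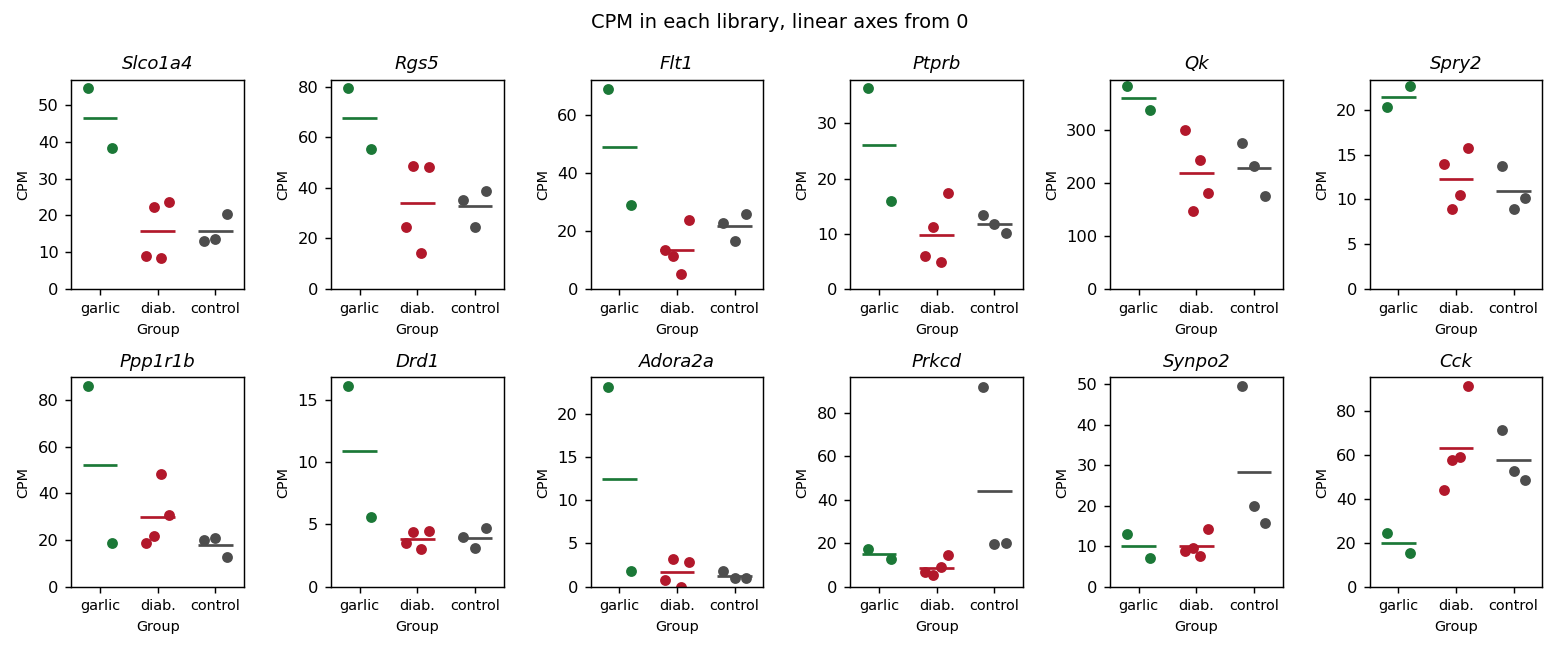
CPM of 12 named genes in each garlic, diabetes and control library (points; lines are group means) on linear axes from 0. Slco1a4, Rgs5, Qk and Spry2 are above all controls in both garlic libraries, the striatal genes Ppp1r1b, Drd1 and Adora2a are highest in garlic replicate 1, and the high control mean of Prkcd and Synpo2 comes mostly from control replicate 1.

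Myelin genes lay slightly above control. Mal, a lipid raft protein of myelin, was at 256 and 167 CPM in garlic, against 179, 164 and 109 CPM in control, with overlap. Of 17 oligodendrocyte genes tested, 15 were above 0 with a median of 0.23, none had an unadjusted p under 0.05, and 4 did not overlap upward (6.65% of all genes). The median was -0.0025 without garlic replicate 1. Qk, an RNA-binding protein that controls splicing of myelin transcripts, was at 382 and 336 CPM in garlic, against 275, 232 and 175 CPM in control (0.66 ± 0.29). Spry2, an inhibitor of growth factor receptor signalling, was at 20.3 and 22.7 CPM in garlic, against 13.8, 8.90 and 10.2 CPM in control (0.97 ± 0.39). Neither Qk nor Spry2 overlapped between the groups.

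Markers of the thalamus and habenula stood lower in garlic. Prkcd, protein kinase C delta, was at 17.1 and 12.9 CPM in garlic, against 91.9, 19.4 and 20.3 CPM in control (log2 change -1.55 ± 0.58). Synpo2, an actin-binding protein, was at 12.9 and 7.11 CPM in garlic, against 49.6, 20.0 and 15.6 CPM in control (-1.501 ± 0.52). Ntng1, netrin G1, a membrane-anchored axon guidance protein, was at 49.4 and 28.9 CPM in garlic, against 91.4, 46.4 and 60.2 CPM in control (-0.75 ± 0.31). Control replicate 1 was the highest library for each, and without it the log2 changes were -0.40 for Prkcd, -0.83 for Synpo2 and -0.45 for Ntng1. Of 20 genes of this list tested, 18 were at or below 0 with a median of -0.36, 3 had an unadjusted p under 0.05, all lower in garlic (0.0313% of all genes tested), and 4 did not overlap downward (6.11%). The list summed to 1093 and 1148 CPM in garlic, against 1640, 1220 and 1254 CPM in control. In diabetes the same list had a median of -1.09 against control, with 10 genes lower at an unadjusted p under 0.05 (7.48% of all genes tested).

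The other genes of smallest p in the downward direction covered several functions. Chst8, a sulfotransferase that modifies pituitary hormone sugars, was at 18.1 and 20.7 CPM in garlic, against 32.8, 33.7 and 24.5 CPM in control (-0.65 ± 0.30). Slc29a1, a nucleoside transporter, was at 33.5 and 34.9 CPM in garlic, against 59.0, 43.3 and 54.0 CPM in control (-0.61 ± 0.28). Cox16, an assembly factor of respiratory complex IV, was at 4.25 and 3.26 CPM in garlic, against 7.26, 8.07 and 6.48 CPM in control (-0.95 ± 0.44). Both garlic libraries were below all controls for these 3 genes. The postsynaptic scaffold gene Shank3 (-0.72 ± 0.34), the phospholipase gene Plch2 (-0.57 ± 0.29) and Sprn, a relative of the prion protein gene (-0.54 ± 0.28), also did not overlap. Ptpn3, a tyrosine phosphatase, had no overlap at -1.13 ± 0.56, and was at -0.49 without control replicate 1, where it stood at 57.2 CPM. Grm2, a metabotropic glutamate receptor, overlapped at -0.77 ± 0.39.

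Feeding peptides of the arcuate nucleus overlapped between garlic and control. Pomc was at 8.95 and 104 CPM in garlic, against 50.3, 60.3 and 68.7 CPM in control, a log2 change of -0.08 ± 0.89. The 2 garlic libraries lay on either side of all controls. Cartpt was at 67.5 and 154 CPM in garlic, against 84.0, 98.6 and 118 CPM in control (0.14 ± 0.53), with the garlic libraries again at the outer ends. Npy was at 17.3 and 20.3 CPM in garlic, against 22.9, 6.96 and 58.5 CPM in control (-0.65 ± 0.73). Agrp was near the detection limit, with 17 and 0 counts in garlic, against 8, 37 and 7 counts in control. Of 16 arcuate peptide and receptor genes tested, 4 were above 0, none had an unadjusted p under 0.05, and the median was -0.10. The serotonin receptor gene Htr2c, which acts on Pomc neurons, had the smallest p of the list and was at 112 and 65.5 CPM in garlic, against 86.2, 68.1 and 67.2 CPM in control.

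The same peptides were set beside the diabetes libraries. Pomc, which pituitary cells also make, was at 171, 238 and 343 CPM in diabetes replicates 1 to 3 and at 1089 CPM in replicate 4, the library with the high pituitary markers. Garlic minus diabetes was -3.02 ± 0.99 (adjusted p = 0.32 in edgeR), and -2.10 without diabetes replicate 4 and curcumin replicate 2 (adjusted p = 0.267). Cartpt was at 295 to 516 CPM in diabetes, and garlic minus diabetes was -1.82 ± 0.55 (adjusted p = 0.271). Both garlic libraries were below all 4 diabetes libraries for both genes, as for 7.52% of all genes tested, and neither difference passed the threshold. Agrp had 0 counts in each of the 4 diabetes libraries.

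Magnocellular and lateral hypothalamic peptides varied widely within groups. Avp, vasopressin, was at 149 and 816 CPM in garlic, against 450, 606 and 742 CPM in control (-0.31 ± 1.12). Oxt, oxytocin, was at 249 and 510 CPM in garlic, against 457, 718 and 526 CPM in control (-0.58 ± 1.05). Garlic replicate 1 was the lowest of the 5 for both. Hcrt, the orexin precursor, was at 34.6 and 59.8 CPM in garlic, against 20.9, 70.0 and 68.0 CPM in control. Pmch, the precursor of melanin-concentrating hormone, was at 313 and 337 CPM in garlic, against 238, 223 and 345 CPM in control. Cck, cholecystokinin, was below all controls, at 24.6 and 15.1 CPM in garlic, against 71.2, 52.3 and 48.5 CPM in control (log2 change -1.53 ± 0.94, unadjusted p = 0.121 in edgeR). Of 26 neuroendocrine peptide genes tested, 8 were above 0, with a median of -0.15, and 2 did not overlap upward (6.65% of all genes) and 4 downward (6.11%).

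Insulin and leptin signalling genes lay at control levels within the error. Insr, the insulin receptor, was at 68.1 and 56.6 CPM in garlic, against 60.5, 45.7 and 47.6 CPM in control (0.28 ± 0.32). Igf1r, the receptor for insulin-like growth factor 1, was at 70.0 and 41.1 CPM in garlic, against 60.2, 64.1 and 29.1 CPM in control (0.12 ± 0.37). Lepr, the leptin receptor, was at 3.68 and 2.47 CPM in garlic, against 3.46, 3.59 and 2.72 CPM in control. Socs3, the feedback inhibitor of leptin signalling, was at 1.82 and 1.16 CPM in garlic, against 3.55, 1.27 and 4.49 CPM in control (-1.06 ± 0.99). Of the 29 genes tested, 11 were above 0, none had an unadjusted p under 0.05 and the median was -0.05. Pik3ca, a catalytic subunit of the PI3 kinase that carries the insulin signal, did not overlap, at 70.1 and 72.9 CPM in garlic, against 61.0, 57.6 and 59.2 CPM in control, a log2 change of only 0.27 ± 0.25. Glucose transport and glycolysis genes had a median of -0.03 over 27. Their smallest p was that of the glycolytic enzyme Aldoa, at 44.9 and 20.0 CPM in garlic, against 90.8, 121 and 20.8 CPM in control, so that control replicate 3 lay with garlic. More than 1 gene ID carries the symbol Aldoa, and these values are of the ID with the most counts.

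The lists linked in the literature to garlic compounds had medians close to 0. Of 25 NRF2 antioxidant genes tested, 20 were above 0, but the median was 0.06 and none had an unadjusted p under 0.05 or separated the groups. Hmox1, heme oxygenase 1, was at 3.81 and 4.58 CPM in garlic, against 4.01, 3.70 and 2.36 CPM in control (0.32 ± 0.85). Nqo1, a quinone reductase, was at 5.01 and 5.16 CPM in garlic, against 6.63, 3.32 and 4.81 CPM in control (0.05 ± 0.66). G6pdx, which supplies NADPH, overlapped at -0.23 ± 0.31. Of 13 hydrogen sulfide and transsulfuration genes tested, 6 were above 0, with a median of -0.04. Cbs, which makes cystathionine and hydrogen sulfide, was at 40.7 and 40.5 CPM in garlic, against 46.9, 56.4 and 23.6 CPM in control (-0.06 ± 0.31). Cth, the next enzyme of that path, was at 3.19 and 1.84 CPM in garlic, against 3.80, 2.98 and 3.22 CPM in control (-0.40 ± 0.89). Gclc, the catalytic subunit of the first enzyme of glutathione synthesis, was at 0.16 ± 0.24.

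No inflammatory gene tested had an unadjusted p under 0.05. Tnf, Il1b and Il6 had at most 5 counts in any library and were not tested. Of 20 inflammatory genes tested, 12 were above 0, with a median of 0.17 that was -0.02 without control replicate 3. Nfkbia, the inhibitor of NF-kB, was at 28.4 and 16.2 CPM in garlic, against 18.0, 23.9 and 8.75 CPM in control (0.40 ± 0.40), and Relb, a subunit of NF-kB, was at 0.80 ± 0.64 with overlap. Interferon genes had a median of 0.14 over 20, with Ifit1, an interferon-induced antiviral protein gene, at 1.14 ± 0.88. Microglial genes had a median of 0.11 over 15, although Aif1, which encodes the microglial protein IBA1, stood below all controls at 2.26 and 2.79 CPM in garlic, against 2.91, 6.52 and 6.26 CPM in control (-1.05 ± 0.84).

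Astrocyte levels turned on control replicate 3. Gfap, the astrocyte filament protein gene, was at 142 and 224 CPM in garlic, against 239, 320 and 80.6 CPM in control (-0.22 ± 0.41). Slc4a4, a bicarbonate transporter of astrocytes, was at 335 and 193 CPM in garlic, against 251, 247 and 42.0 CPM in control (0.55 ± 0.47). The 14 astrocyte markers had a median of 0.28, and of -0.11 without control replicate 3. The 11 reactive astrocyte genes tested had a median of -0.22. Tanycyte and ependymal genes, which line the third ventricle, had a median of -0.46, with 4 of 17 above 0 (Crym among them) and 5 not overlapping downward (6.11% of all genes), and between -0.58 and -0.22 with any 1 library left out.

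Nuclear-encoded respiratory genes and ribosomal protein genes had medians near 0 in garlic minus control and above 0 in diabetes minus control. The 75 nuclear genes of oxidative phosphorylation tested were at a median of -0.10 in garlic minus control, with 13 above 0 and none at an unadjusted p under 0.05. In diabetes minus control the same genes had a median of 0.78, with 42 higher at an unadjusted p under 0.05 (4.79% of all genes tested). In the direct comparison, 38 of the 75 were lower in garlic than in diabetes at an unadjusted p under 0.05 (4.03% of all genes tested). The list summed to 7941 and 9820 CPM in garlic, to between 12466 and 20690 CPM in diabetes, and to 9619, 9695 and 9300.1 CPM in control. The garlic libraries were below all 4 diabetes libraries, garlic replicate 1 was below all 3 controls and garlic replicate 2 above them. The garlic minus control median was -0.39 without garlic replicate 2 and 0.13 without garlic replicate 1. Ndufa9, a subunit of complex I, was at 68.0 and 47.7 CPM in garlic, against 77.7, 83.7 and 53.4 CPM in control.

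Cytosolic ribosomal protein genes behaved alike, with a median of 0.04 over 79 genes in garlic minus control and of 0.54 in diabetes minus control. Of the 79, 24 were lower in garlic than in diabetes at an unadjusted p under 0.05 (4.03% of all genes tested). Their median in garlic ran from -0.44 without garlic replicate 2 to 0.34 without garlic replicate 1, so the 2 garlic libraries lay on opposite sides of control. Rpl37, a large-subunit protein gene, was at 14.8 and 32.3 CPM in garlic, against 9.88, 9.23 and 29.6 CPM in control. The 13 mitochondrially encoded genes had a median of 0.11 in garlic minus control and of -0.26 in diabetes minus control, and mt-Atp6, a subunit of ATP synthase, was at 2647 and 4183 CPM in garlic, against 2456, 2518 and 3703 CPM in control. Garlic replicate 2 and control replicate 3 were the high libraries for both Rpl37 and mt-Atp6. Genes that share sequence with pseudogenes, as ribosomal protein genes do, are uncertain, since how the authors counted multi-mapping reads is not stated in the sources used here.

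The 4 genes called between diabetes and control in the same fit (0.0156% of all genes tested, all higher in diabetes) are given as a description. They were chosen by that call, which favours genes that are high in these diabetes libraries and low in these control libraries. Their garlic values, set against either group, therefore do not test how near garlic lay to control. Without diabetes replicate 4 and curcumin replicate 2 none of the 4 passed (adjusted p from 0.0729 to 0.0972 in edgeR). Junb, a partner of Fos proteins in the AP-1 complex, was at 32.0 and 32.2 CPM in garlic, 67.6 to 109 CPM in diabetes, and 20.8, 24.4 and 21.2 CPM in control. Garlic lay above all controls (0.54 ± 0.33) and below all diabetes libraries (-1.45, adjusted p = 0.18 in edgeR). Rps2, a small-subunit ribosomal protein gene, was at 52.9 and 91.4 CPM in garlic, 162 to 231 CPM in diabetes, and 60.9, 62.3 and 71.0 CPM in control. S100a1, a calcium-binding protein gene, was at 32.9 and 46.3 CPM in garlic, 110 to 189 CPM in diabetes, and 47.8, 51.2 and 32.0 CPM in control. Rpl34-ps1, annotated as a ribosomal protein pseudogene, was at 72.8 and 131 CPM in garlic, 267 to 405 CPM in diabetes, and 112, 146 and 123 CPM in control. For Rps2, S100a1 and Rpl34-ps1 the garlic and control libraries overlapped, with log2 changes of 0.16 ± 0.26, -0.14 ± 0.32 and -0.32 ± 0.28. Garlic minus diabetes was -1.37 for Rps2 (adjusted p = 0.115), -1.96 for S100a1 (adjusted p = 0.0892) and -1.81 for Rpl34-ps1 (adjusted p = 0.0892), none past the threshold. In edgeR's robust fit S100a1 and Rpl34-ps1 passed (adjusted p = 0.0363 for both).

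**Figure D4:**
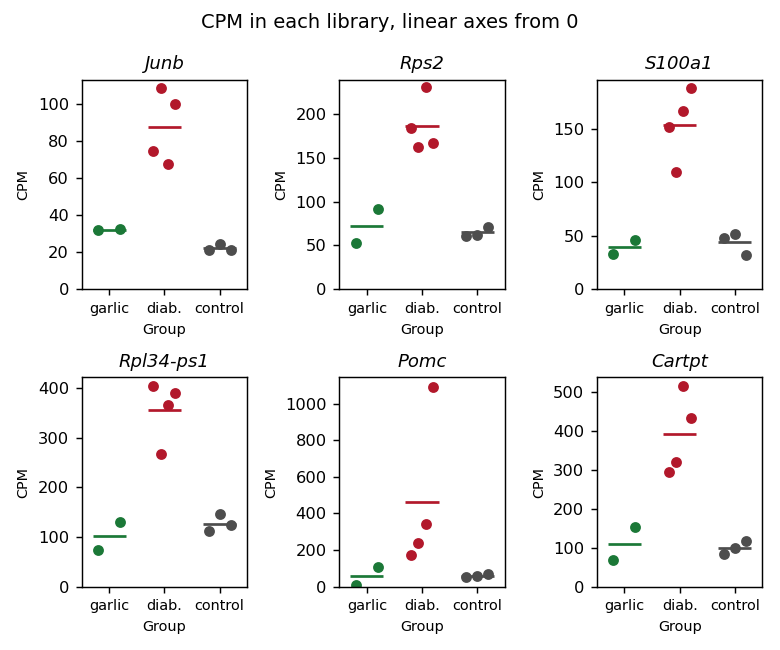
CPM of the 4 genes called between diabetes and control, and of Pomc and Cartpt, in each garlic, diabetes and control library (points; lines are group means) on linear axes from 0. Both garlic libraries lie below all 4 diabetes libraries in every panel, and for Junb, at 32.0 and 32.2 CPM, above all 3 controls.

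Immediate early genes, which neurons switch on within minutes of activity, stood a little above control. Of 25 tested, 18 were above 0, with a median of 0.30 in garlic, against 0.87 for diabetes minus control, and 8 did not overlap upward (6.65% of all genes) against 1 downward (6.11%). Egr3, an activity-induced transcription factor, was at 16.4 and 6.37 CPM in garlic, against 7.34, 4.37 and 3.17 CPM in control (1.20 ± 0.57). The median of the list was -0.01 without garlic replicate 1. Glucocorticoid-induced genes had a median of 0.18 over 15 genes, and Sgk1, a kinase induced by corticosteroids, followed single libraries, at 166 and 38.5 CPM in garlic, against 93.4, 71.7 and 18.8 CPM in control.

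Synaptic genes had a median of -0.01 over 41, with 1 at an unadjusted p under 0.05 (Shank3), and voltage-gated channel genes one of 0.00 over 24, where the potassium channel gene Kcnd2 was at 0.29 ± 0.28. In diabetes minus control these lists had medians of -0.29 and -0.49. Clock genes had a median of 0.05 over 18, with Rora, a nuclear receptor of the clock and of thalamic neurons, at -0.39 ± 0.36. Lipid and cholesterol genes were at 0.00 over 22, with the cholesterol exporter gene Abca1 at 0.45 ± 0.41. Endoplasmic reticulum stress genes were at -0.11 over 20, with 4 above 0, and Xbp1, a transcription factor of that response, was at -0.23 ± 0.23. Heat shock genes were at -0.13 over 12, with 2 above 0, and the mitochondrial chaperonin gene Hspe1 was at -0.31 ± 0.30. No gene of these 6 lists other than Shank3 had an unadjusted p under 0.05. Hypothalamic transcription factors had a median of 0.12 over 25, where Lhx6, a factor of GABA neurons, was at 29.6 and 8.95 CPM in garlic, against 9.12, 7.85 and 6.57 CPM in control.

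**Figure D5:**
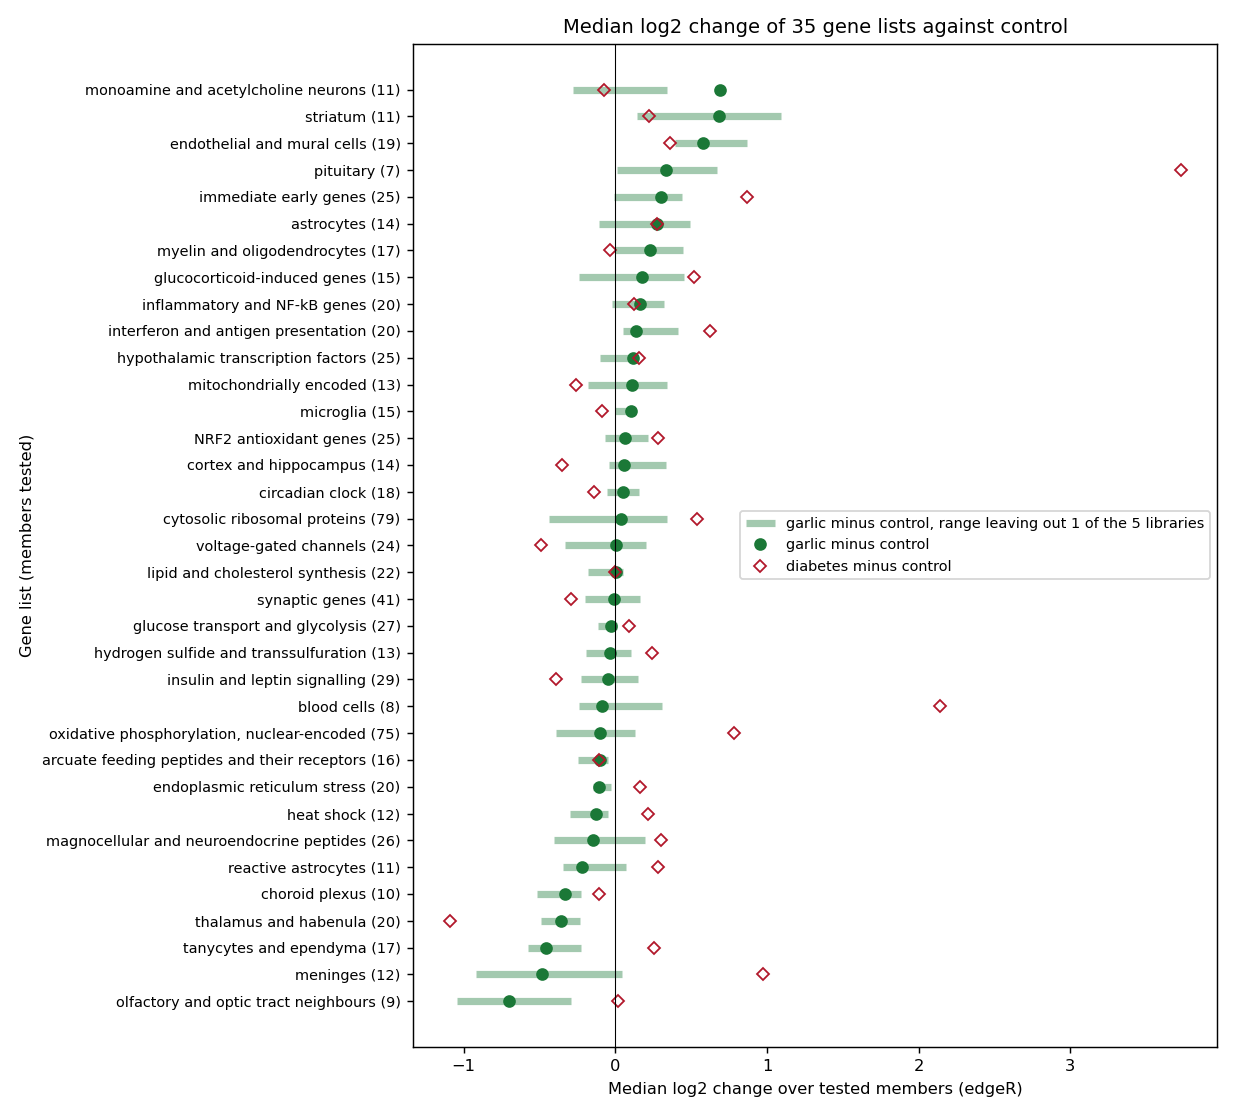
Median log2 change against control of 35 gene lists (number of members tested in brackets), for garlic (filled circles) and diabetes (open diamonds); green bars span the garlic medians with any 1 of the 5 libraries left out. Garlic lies near 0 for oxidative phosphorylation (-0.10, against 0.78 in diabetes) and ribosomal proteins (0.04, against 0.54), above it for endothelial and mural cells (0.58) and below it for thalamus and habenula (-0.36).

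Genes of tissues next to the hypothalamus were scarce or followed single libraries. Ptgds, a prostaglandin D synthase of meninges and oligodendrocytes, was at 222 and 228 CPM in garlic, against 1173, 322 and 213 CPM in control. Garlic minus control was -1.34 ± 0.99. With all libraries and no filter on low counts its adjusted p was 0.029 in edgeR. In the filtered fit Ptgds was not called with all libraries, and its change was -0.25 when control replicate 1 was left out. The unfiltered fit was not run without that library. The meningeal median of -0.49 over 12 genes was 0.04 without control replicate 1. Ttr, transthyretin of the choroid plexus, had 8 and 4 counts in garlic, against 68, 169 and 5 in control, and the choroid plexus median over 10 genes was -0.33. Kcnj13, a potassium channel of choroid plexus, had 0 counts in garlic, against 13, 12 and 0 in control. That is at least 5.43-fold lower when set at the floor of 3 counts over the garlic group, or 3.94-fold without control replicate 2. The neutrophil genes S100a9 and S100a8 and the acute phase gene Lcn2 likewise had 0 counts in garlic. S100a9 had 22, 69 and 0 counts in control, at least 19.8-fold lower in garlic, or 6.67-fold without control replicate 2. The same bound was 11.5-fold for Lcn2 (7.58-fold without control replicate 2) and 7.38-fold for S100a8 (3.64-fold). Control replicate 3 had at most 1 count of these 4 genes, so that library lay with garlic. These bounds cover counting error only.

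Pituitary genes summed to 10.6 and 12.0 CPM in garlic, against 11.0, 3.09 and 21.3 CPM in control, and 7 of 12 were tested. Pitx1, a pituitary transcription factor, had 1 and 8 counts in garlic, against 1, 0 and 0 in control, and Cga, the shared subunit of pituitary glycoprotein hormones, had 0 and 5 in garlic, against 0 in each control. Blood cell genes had a median of -0.09 over 8 genes. Monoamine and acetylcholine neuron genes had a median of 0.69 over 11, which rests on genes with few counts and was between -0.28 and 0.34 with any 1 library left out. Slc5a7, the choline transporter, was above all controls, at 12.4 and 2.84 CPM in garlic, against 2.15, 2.71 and 1.45 CPM in control. Slc6a3, the dopamine transporter, was below them, at 1.77 and 2.74 CPM in garlic, against 14.5, 6.52 and 4.67 CPM in control. Cortex and hippocampus genes had a median of 0.06 over 14. Among them Slc17a7, the vesicular glutamate transporter of cortex, was at 3.68 and 2.74 CPM in garlic, against 28.2, 6.02 and 5.12 CPM in control, and Lamp5, of cortical neurons, was above all controls at 27.3 and 18.1 CPM, against 18.0, 17.9 and 10.5 CPM. Olfactory and optic neighbours had a median of -0.70 over 9 genes of low counts.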

How the data were processed

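The authors deposited 1 table of raw counts for 12 mouse hypothalamus libraries, which was used as it stands. Per the labels' protocols, RNA was Trizol-extracted and libraries were stranded poly-A. Per the submitters' processing notes, FastQC, featureCounts and GRCm39 were used. The sources used here name no aligner, annotation release or strand setting. Symbols came from GENCODE M21 (GRCm38) and were found for 51535 of 78334 IDs, which carried 97.8% of the counts. Library totals ran from 12950017 to 30271706.

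Groups came from sample titles. The labels do not say that libraries are separate animals, so p-values measure the spread between libraries, which may be technical, and no batch is given. Chi-square per degree of freedom was at least 22.4 for each pair of the 5 libraries compared, so no library appeared to be a copy of another. Genes were filtered by filterByExpr (25562 left), scaled by TMM and fitted over all 12 libraries with edgeR 4.0.16 in R 4.3.3 (quasi-likelihood, Benjamini-Hochberg adjustment, threshold 0.05). The spread has 8 residual degrees of freedom. Distances used log2 CPM with a prior count of 2. DESeq2 1.42.0 and limma 3.58.1 were alternatives, with other filters, scalings and left-out libraries. The statistics were checked on simulated counts.

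The members and the 35 gene lists were chosen with earlier results of these data known. The naming rule took, as fewer than 10 genes passed, the 12 of smallest p in each direction at a mean of at least 1 CPM with a proper symbol, the 2 of smallest p per list, 21 genes of appetite, insulin and inflammation, and the genes called in diabetes. It took 104 tested genes, of which 3 are not reported here and 79 are named, since a list's second gene was named only up to an unadjusted p of 0.2, a limit added after values were seen. No sequences are shown, as no gene was called.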

Additional observations from a re-analysis of the deposited data

How the results depend on the processing

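No gene was called between garlic and control in edgeR under the other scalings and filters, DESeq2, limma-voom, fewer libraries, the robust fit, the covariate for genes detected and each left-out library. The exception was the fit without a low-count filter, which called 3 (Ptgds lower, adjusted p = 0.029, and 2 unnamed genes higher). The smallest adjusted p of that edgeR fit was 1.25e-83, for 1 of the 2 unnamed genes. Its cause was not tested. The ratio of garlic to control distance ran from 0.860 to 1.01 across settings and from 0.761 to 1.05 with 1 library left out, each less than 1 SD of the garlic ratio (0.189) from 0.891. For garlic against diabetes, where 0 were called, the count was 356 without the filter, 432 in DESeq2, 429 in limma-voom, 1 without diabetes replicate 4 and curcumin replicate 2, 4 in the robust fit (S100a1, Rpl34-ps1 and a pair of other ribosomal protein pseudogenes), and 0 to 52 with 1 library left out. For diabetes against control, where 4 were called, it was 468 without the filter, 0 at 1 CPM in 2 libraries, 528 in DESeq2, 1177 in limma-voom, 1 without that pair of libraries, 0 with the covariate, and 0 to 194 with 1 library left out. Leaving out a garlic library also lets more genes pass the filter (31107 and 30759), and the lone garlic library is then assumed to vary like the other groups. The cause of the other differences was not tested.

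Whether shared replicate numbers pair the libraries could not be decided. Deviations from group means correlated at 0.252 for garlic and control replicate 1 and at -0.179 for replicate 2. With 2 garlic libraries these deviations mirror each other, so garlic replicate 2 only reverses the sign of the garlic replicate 1 values. A fit with the replicate block called 0 genes between garlic and control, with 42 at an unadjusted p under 0.05 (21 in each direction), 1 between garlic and diabetes and 1 between diabetes and control.

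Among 79 named genes, log2 changes that turned sign with 1 library left out ran from -0.20 to 0.90 for Abca1, -7.18 to 0.20 for Agrp, -2.005 to 0.44 for Avp, -0.57 to 0.61 for Cartpt, -0.35 to 0.20 for Cbs, -0.20 to 1.84 for Ddn, -0.48 to 0.063 for G6pdx, -0.029 to 0.33 for Gclc and -0.61 to 0.19 for Gfap. They ran from -0.60 to 0.17 for Hcrt, -0.18 to 0.61 for Htr2c, -0.33 to 0.46 for Igf1r, -0.032 to 0.55 for Kcnd2, -0.41 to 0.18 for Lepr, -0.073 to 0.76 for Nfkbia, -1.12 to 0.33 for Npy, -0.17 to 0.32 for Nqo1, -2.73 to 0.79 for Pomc and -0.62 to 0.12 for Rora. They ran from -0.80 to 0.033 for Rpl34-ps1, -0.13 to 1.30 for Rpl37, -0.28 to 0.49 for Rps2, -0.40 to 0.075 for S100a1, -0.68 to 1.44 for Sgk1 and -0.12 to 0.52 for mt-Atp6. With the covariate for genes detected, signs turned for mt-Atp6 (-0.18), Oxt (0.57), Hmox1 (-0.066), Avp (0.89), Hcrt (2.32), Lepr (0.51), Pomc (1.04) and Nqo1 (-0.56). In limma-voom they turned for Igf1r (-0.034), Hcrt (0.45) and Nqo1 (-0.10), and with the replicate block for Igf1r (-0.014), Hcrt (0.25) and Pomc (0.027). No other setting turned the garlic minus control change of a named gene, and in that comparison no named gene but Ptgds crossed the threshold. The change of Cga was 0 without garlic replicate 2. Of list medians, 57 of 245 under alternatives moved by more than the spread between the garlic libraries. With 2 garlic libraries, depth limits genes of low counts most.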
